A study of Mus musculus with 6 samples.

Results

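The smooth muscle contractile genes are 10 genes taken by name from the gene count table: the actin gene Acta2, the actin-binding genes Tagln, Cnn1, Smtn, Lmod1 and Tpm2, the myosin genes Myh11 and Myl9, the kinase gene Mylk and the transcriptional coactivator gene Myocd. All 10 were among the 54532 genes of the table, and 8 had enough counts to be tested; Myh11 and Myocd did not. The LPS group was 3 cultures of wild-type male mouse aortic cells stimulated for 8 h with 500 ng/mL lipopolysaccharide (LPS), an outer membrane component of Gram-negative bacteria. The Vehicle group was 3 cultures of the same cells kept for 8 h in starvation medium as the vehicle control. The labels name the cells endothelial. Each of 3 cell isolations gave 1 culture of each group, and RNA was measured by bulk RNA sequencing.

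Smooth muscle contracts when calcium-bound calmodulin activates myosin light chain kinase, which phosphorylates the regulatory light chain of myosin so that myosin pulls on actin filaments. Myocardin, bound to serum response factor (SRF) at DNA elements called CArG boxes, switches on most genes of this apparatus. In cells without myocardin the related coactivators Mrtfa and Mrtfb can act on the same elements. Several of the genes, such as Acta2, Tpm2 and Myl9, are also made by cultured fibroblasts and pericytes, whereas Myh11 and Myocd are more restricted to muscle.

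Libraries held 16509197 to 21149988 counts in the LPS group and 17294955 to 25082714 in the Vehicle group. The labelled cell type was not borne out by its markers: of 12 endothelial markers, 8 had too few counts to be tested. Cldn5 had 0 counts in all 6 libraries, and the junction gene Cdh5 averaged 0.0315 ± 0.0545 CPM in LPS and 0.0361 ± 0.0313 CPM in Vehicle (counts scaled to a common library size; SD, n = 3 each). Of the endothelial sum of 283 to 296 CPM in LPS and 298 to 299 CPM in Vehicle, nearly all came from the TGF-beta coreceptor gene Eng, with 278 ± 5.60 and 286 ± 1.22 CPM. The 9 fibroblast markers, led by the collagen genes Col1a1 and Col1a2, summed to 4095 to 5661 CPM in LPS and 6364 to 7557 CPM in Vehicle. The 9 pericyte markers, led by Rgs5 and Pdgfrb, summed to 1385 to 1664 CPM in LPS and 1898 to 2025 CPM in Vehicle. Of the fibroblast markers 2 rose (Dcn and Pi16) and 3 fell (Pdgfra, Col1a1 and Col1a2), of the pericyte markers 1 rose (Ndufa4l2) and 4 fell (Cspg4, Pdgfrb, Notch3 and Anpep), and of the endothelial markers 1 fell (Erg). Of all 14508 tested genes, 24.9% were called higher and 24.4% lower. Some of these calls ended without 1 library: Erg without LPS 3, Vehicle 1 or Vehicle 2, Col1a2 without LPS 2 or Vehicle 1, and Ndufa4l2 without LPS 2, Vehicle 2 or Vehicle 3. With the length offset described below, 2 of 9 tested fibroblast markers were called higher and 1 lower. Of 8 tested pericyte markers 0 and 2 were called higher and lower, and of 4 tested endothelial markers 0 and 1. Of all tested genes, 21.8% were called higher and 13.8% lower with this offset. Mitochondrial genes took 1.28 to 1.66% of counts in LPS and 1.88 to 1.97% in Vehicle. The part of these shifts in the results for the contractile genes was not tested. Macrophage markers summed to 5.84 to 7.63 CPM in LPS and 5.36 to 6.23 CPM in Vehicle, led by Csf1r and Cd68, with Ptprc and Adgre1 at 0 counts throughout. The 10 markers of striated muscle, led by Tnnc1 and Acta1 and with Ckm at 0, summed to 2.88 to 7.86 CPM in LPS and 3.44 to 4.65 CPM in Vehicle. The 7 epithelial and mesothelial markers, led by Upk3b and Krt18 and with Krt8 at 0, reached at most 2.87 CPM in LPS and 1.77 CPM in Vehicle. In bulk RNA, fewer cells of a type and less RNA per cell cannot be told apart.

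Promoter windows of 4 of the genes are shown because the CArG box is the classical control element of the family. These are also the 4 genes of highest level per length, among them both that rose. The window of Mylk, which fell, is not printed and held no CArG-like element. That window (chr16:34784700-34784999) lies inside the gene, which starts at 34745210, so it covers 1 internal start site only. No other Mylk start site was searched. The Smtn window also lies inside its gene, which reaches 3540612 on the minus strand. All windows are from RefSeq (GRCm38.p6), 5′ to 3′, from 250 bases before to 50 bases after the annotated start site. RefSeq start sites can differ from the gene starts of the count table. Capitals mark CArG boxes and CArG-like elements; a CArG-like element has 1 G or C in the 6-base A/T core.
Acta2 (chr19:34255324-34255623, minus strand): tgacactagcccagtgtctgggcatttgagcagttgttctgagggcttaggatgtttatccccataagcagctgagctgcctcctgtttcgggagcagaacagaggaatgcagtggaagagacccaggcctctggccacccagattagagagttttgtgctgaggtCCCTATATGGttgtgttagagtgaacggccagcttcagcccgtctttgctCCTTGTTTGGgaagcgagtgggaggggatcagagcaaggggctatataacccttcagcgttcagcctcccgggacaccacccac
Myl9 (chr2:156775214-156775513, plus strand): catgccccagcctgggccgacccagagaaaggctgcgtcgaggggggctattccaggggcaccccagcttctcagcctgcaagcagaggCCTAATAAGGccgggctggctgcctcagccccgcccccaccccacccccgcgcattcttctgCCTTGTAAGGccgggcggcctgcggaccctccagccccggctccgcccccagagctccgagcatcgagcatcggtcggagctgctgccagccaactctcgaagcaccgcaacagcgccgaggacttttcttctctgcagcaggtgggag
Tpm2 (chr4:43523505-43523804, minus strand): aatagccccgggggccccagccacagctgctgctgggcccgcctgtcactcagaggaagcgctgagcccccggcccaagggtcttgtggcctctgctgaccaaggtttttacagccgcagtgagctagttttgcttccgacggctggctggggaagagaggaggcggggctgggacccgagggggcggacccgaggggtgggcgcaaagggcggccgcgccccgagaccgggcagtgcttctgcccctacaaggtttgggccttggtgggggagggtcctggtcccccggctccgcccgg
Smtn (chr11:3539243-3539542, minus strand): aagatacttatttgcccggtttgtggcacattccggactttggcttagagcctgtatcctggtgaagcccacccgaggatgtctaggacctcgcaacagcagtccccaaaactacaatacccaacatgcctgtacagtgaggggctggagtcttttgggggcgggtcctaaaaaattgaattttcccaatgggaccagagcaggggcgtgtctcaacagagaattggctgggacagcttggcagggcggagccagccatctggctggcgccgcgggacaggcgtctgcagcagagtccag
RefSeq windows were matched by symbol for 7 of the 10 genes, not for Tagln, Myh11 and Myocd. Both strands were searched; a CArG element reads as one on either strand. A strict CArG box was found in 1 of the 7, Myl9 (CCTAATAAGG, positions -161 to -152 from the start site), and in 1.63% of all 32851 windows. A CArG-like element, counting strict boxes too, was found in 2 of the 7 and in 9.98% of all windows. Acta2 held CCCTATATGG at -84 to -75 and CCTTGTTTGG at -34 to -25, and Myl9 held CCTTGTAAGG at -99 to -90 beside its strict box. The hexamer CATTCC, the core of the MCAT element, was in the windows of 4 of the 7 (Acta2, Lmod1, Mylk and Smtn) and in 14.7% of all windows. The exact TATA hexamer TATAAA was in 0 of the 7 and in 13.6% of all windows. Near matches were not counted, such as the letters TATATAA in the Acta2 window. The windows of Tpm2 and Smtn held no CArG-like letters.

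The 10 genes covered more than 3 orders of magnitude in level per length. Levels between genes are given as TPM, counts divided by gene length and scaled to a common sum in each library. Acta2 had the highest mean of the 10 genes in both groups. It had 458, 495 and 369 TPM in LPS 1, 2 and 3, against 527, 524 and 452 TPM in Vehicle 1, 2 and 3. By mean TPM it ranked number 330 of the whole table in LPS and number 255 in Vehicle. Tpm2, which encodes beta-tropomyosin, averaged 375 ± 68.3 TPM in LPS and 265 ± 4.96 TPM in Vehicle. Its range overlapped that of Acta2 in LPS and lay below it in Vehicle. In LPS 3 Tpm2 was above Acta2, at 407 TPM. In CPM, which takes no account of gene length, Tpm2 was above Acta2 in every LPS library. Smtn, which encodes the actin-associated protein smoothelin, averaged 152 ± 6.82 and 139 ± 5.42 TPM in LPS and Vehicle. Myl9, the regulatory light chain gene, followed with 58.5 ± 13.7 and 72.9 ± 4.14 TPM.

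The other 6 genes were far lower. Cnn1, which encodes calponin, averaged 7.85 ± 0.819 TPM in LPS and 9.06 ± 1.46 TPM in Vehicle. Lmod1, which encodes the actin nucleator leiomodin, averaged 4.91 ± 1.87 and 8.11 ± 1.18 TPM, and Mylk 2.18 ± 1.07 and 5.04 ± 0.809 TPM. Tagln, which encodes transgelin (SM22), an abundant protein of smooth muscle, averaged 1.64 ± 0.912 TPM in LPS and 1.86 ± 0.303 TPM in Vehicle. Acta2 was thus 214, 226 and 623 times Tagln per length in LPS 1, 2 and 3, and 239, 314 and 266 times in Vehicle 1, 2 and 3. The antisense gene Gm48529 shares 1241 of the 1988 exon bases of Tagln. The level of Tagln and this ratio are therefore uncertain. Myh11, the smooth muscle myosin heavy chain gene, averaged 0.139 ± 0.145 and 0.126 ± 0.0975 TPM, and Myocd 0.0181 ± 0.0314 and 0.0775 ± 0.0293 TPM. Neighbours in this order whose ranges overlapped were Acta2 and Tpm2, Lmod1 and Mylk, Mylk and Tagln, and Myh11 and Myocd in LPS, and Cnn1 and Lmod1, and Myh11 and Myocd in Vehicle. Tpm2, Acta2 and Smtn together made up 93.8 to 96.0% of the summed CPM of the 10 genes in LPS and 91.3 to 92.3% in Vehicle.

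**Figure D1:**
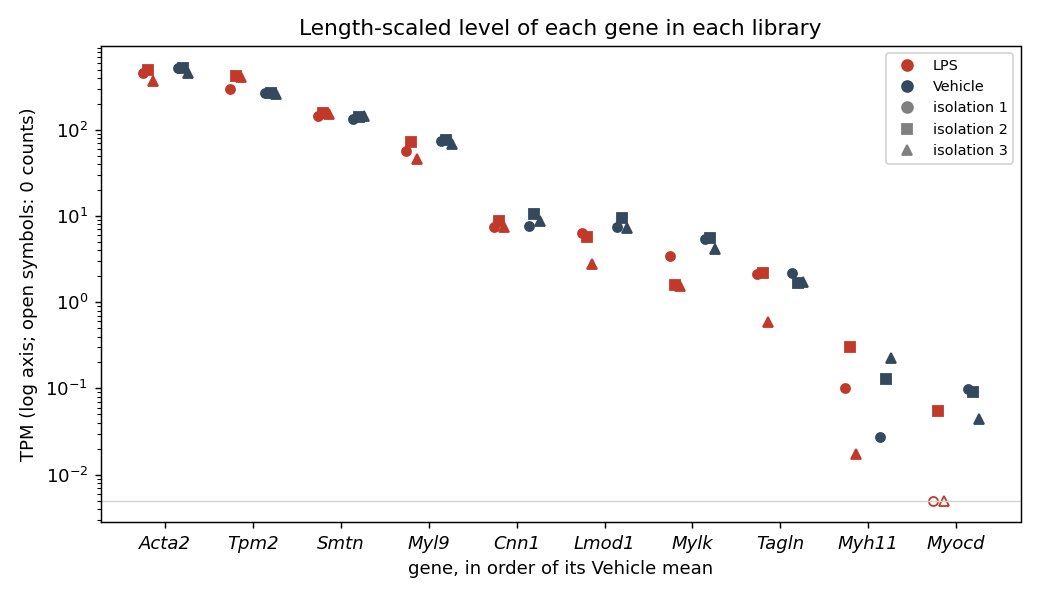
Level of each of the 10 genes in TPM (log axis) in each library, with LPS left of Vehicle and 1 symbol per isolation; open symbols on the grey line are libraries with 0 counts. Acta2, Tpm2 and Smtn lie above 100 TPM in every library, and Myh11 and Myocd lie below 1 TPM in every library.

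The comparison of LPS with Vehicle asks which genes respond to LPS. Of the 8 tested genes, 2 rose (Tpm2 and Smtn), 1 fell (Mylk) and 5 were not called (edgeR adjusted p below 0.05). Over all tested genes 24.9% were called higher and 24.4% lower, 49.3% in all, so calls in 3 of 8 genes are no more than the background. With the replicate block the members' calls were the same 3, against 51% of all genes called. With an offset for transcript length, 2 were called higher (Tpm2 and Smtn), against 21.8% of all genes, and 1 lower (Myl9 in place of Mylk), against 13.8%. The CPM ranges of the groups did not overlap for 4 of the 8, against 61.9% of all tested genes. The median log2 fold change (LPS over Vehicle) of the 8 genes was 0.15, against -0.0031 over all tested genes. In the fit with no offset the 3 calls went in both directions. A shift of the 8 genes as a set was not tested.

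Of the thin filament genes, Tpm2 rose most. Its product lies along actin filaments and governs the access of myosin. It had 267, 438 and 457 CPM in LPS 1, 2 and 3, against 211, 206 and 210.3 CPM in Vehicle 1, 2 and 3. All LPS libraries were above all Vehicle libraries, with LPS 1 nearest to them. The log2 fold change was 0.89 (SE 0.175, adjusted p = 0.00302), or 1.85-fold (95% interval 1.41-fold to 2.43-fold). Within isolations 1, 2 and 3 the log2 differences were 0.34, 1.09 and 1.12. Tpm2 stayed called without each library in turn (adjusted p up to 0.0192) and with an offset for transcript length (log2 fold change 0.67, adjusted p = 0.00527). Without isolation 2, edgeR did not call it (log2 fold change 0.78, adjusted p = 0.0793), and DESeq2 did (adjusted p = 0.0112). Tpm2 lies on chromosome 4 from 43514711 to 43523765 (ENSMUSG00000028464, GRCm38).

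Smtn was the other gene that rose. It had 196, 248 and 258 CPM in LPS 1, 2 and 3, against 157, 164 and 175 CPM in Vehicle 1, 2 and 3, with no overlap. The log2 fold change was 0.50 (SE 0.113, adjusted p = 0.00569), or 1.41-fold (95% interval 1.19-fold to 1.68-fold), and 0.32, 0.59 and 0.56 within isolations 1, 2 and 3. The length offset gave 0.53 (adjusted p = 0.00440), and Smtn stayed called without each library in turn (adjusted p up to 0.0338). Without isolation 2 it was not called, at 0.45 in edgeR (adjusted p = 0.127) and in DESeq2 (adjusted p = 0.0978). Smtn (ENSMUSG00000020439) lies on chromosome 11 from 3517523 to 3540612. The antisense genes Gm11946 and Gm11947 share 714 and 39 of its 4380 exon bases; Gm11946 had 10 to 23 counts per library, against 2798 to 5122 for Smtn.

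Acta2, the smooth muscle alpha-actin gene and a widely used marker of the cell type, did not pass the test. It had 253, 316 and 253.1 CPM in LPS 1, 2 and 3, against 252, 249.6 and 224 CPM in Vehicle 1, 2 and 3. The LPS libraries lay above the Vehicle libraries by less than 1 CPM at the nearest. Its log2 fold change was 0.18 (SE 0.109, adjusted p = 0.194), with a 95% interval of 0.957-fold to 1.34-fold. Without LPS 1 Acta2 was called higher (log2 fold change 0.23, adjusted p = 0.0382), and the length offset gave it a value of -0.06 (adjusted p = 0.660). Its mean was higher in LPS in CPM and lower in TPM, a scale that also depends on the lengths of all other genes in a library. Acta2 (ENSMUSG00000035783) lies on chromosome 19 from 34241090 to 34255336, and none of the 75-base windows of its longest transcript occurs in a transcript of another gene.

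Cnn1, Lmod1 and Tagln were not called either, and their groups overlapped. Cnn1, whose product holds back myosin ATPase on actin, had 6.28, 8.63 and 7.76 CPM in LPS and 5.67, 7.77 and 6.73 CPM in Vehicle. Its log2 fold change came to 0.16 (adjusted p = 0.495), with an interval of 0.839-fold to 1.49-fold. Lmod1 had 7.69, 8.01 and 4.23 CPM in LPS and 7.97, 10.01 and 8.06 CPM in Vehicle, with LPS 3 the lowest library. Its log2 fold change was -0.39 (adjusted p = 0.199), and the interval ran from 0.529-fold to 1.10-fold; without isolation 1 it was called lower (adjusted p = 0.0449). Cnn1 lies on chromosome 9 from 22099216 to 22109630 and Lmod1 on chromosome 1 from 135324807 to 135368065.

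Tagln had 28, 25 and 9 counts in LPS 1, 2 and 3, against 21, 17 and 24 counts in Vehicle 1, 2 and 3. At this depth its interval was 0.546-fold to 2.23-fold (log2 fold change 0.14, adjusted p = 0.814), and the differences within isolations, 0.16, 0.80 and -1.01, had both signs. Tagln lies on chromosome 9 from 45929619 to 45936058. Its counts are uncertain for another reason too. The antisense gene Gm48529 shares 1241 of the 1988 exon bases of Tagln and had 14 to 35 counts per library, about as many as Tagln. Pcsk7, also on the opposite strand, shares 108 of those bases and had 521 to 966 counts per library, against 9 to 28 for Tagln. The strand setting of the counting is unknown, and so is the direction of any error in the level of Tagln.

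The kinase gene Mylk fell. Its product phosphorylates the regulatory light chain. Mylk had 11.9, 6.38 and 6.70 CPM in LPS 1, 2 and 3, against 16.6, 16.7 and 12.8 CPM in Vehicle 1, 2 and 3. All LPS libraries were below all Vehicle libraries, with LPS 1 nearest to them. The log2 fold change was -0.87 (SE 0.236, adjusted p = 0.0130), a level of 0.547 of that in Vehicle. The call ended without LPS 2 (adjusted p = 0.0559), Vehicle 1 (adjusted p = 0.0516) or Vehicle 2 (adjusted p = 0.0531). It also ended without isolation 2 (log2 fold change -0.65, adjusted p = 0.166) and with the length offset, which gave -0.28 (adjusted p = 0.235). Mylk (ENSMUSG00000022836, chromosome 16, 34745210 to 35002420) has a longest transcript of 7824 bases, the longest of the 10 genes, and gene counts cannot tell its long, short and telokin transcripts apart.

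Myl9, the substrate of the kinase, had 20.2, 30.5 and 20.7 CPM in LPS 1, 2 and 3, against 23.4, 23.5 and 22.0 CPM in Vehicle 1, 2 and 3. The Vehicle libraries lay within the LPS range, and the log2 fold change was 0.05 (SE 0.160, adjusted p = 0.831; 0.806-fold to 1.32-fold). Under the length offset Myl9 was called lower (-0.41, adjusted p = 0.0493). With an offset for the deposited gene length it was not (log2 fold change -0.39, adjusted p = 0.0605). Its longest transcript has 1128 bases. Myl9 (ENSMUSG00000067818) lies on chromosome 2 from 156775420 to 156781658.

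Myh11 (chromosome 16, 14194535 to 14291372) and Myocd (chromosome 11, 65176561 to 65269989) were at the limit of detection. Myh11 had 5, 13 and 1 counts in LPS 1, 2 and 3, against 1, 5 and 12 counts in Vehicle 1, 2 and 3, in all 19 and 18. Myocd had 0, 2 and 0 counts in LPS and 3, 3 and 2 counts in Vehicle. A count of 0 allows up to 3 counts, which is 0.142 CPM in LPS 1 and 0.151 CPM in LPS 3, counting error only. In a fit with no filter on low counts neither was called (adjusted p = 0.801 for Myh11 and 0.566 for Myocd). Differences in these genes were not detectable at this depth.

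**Figure D2:**
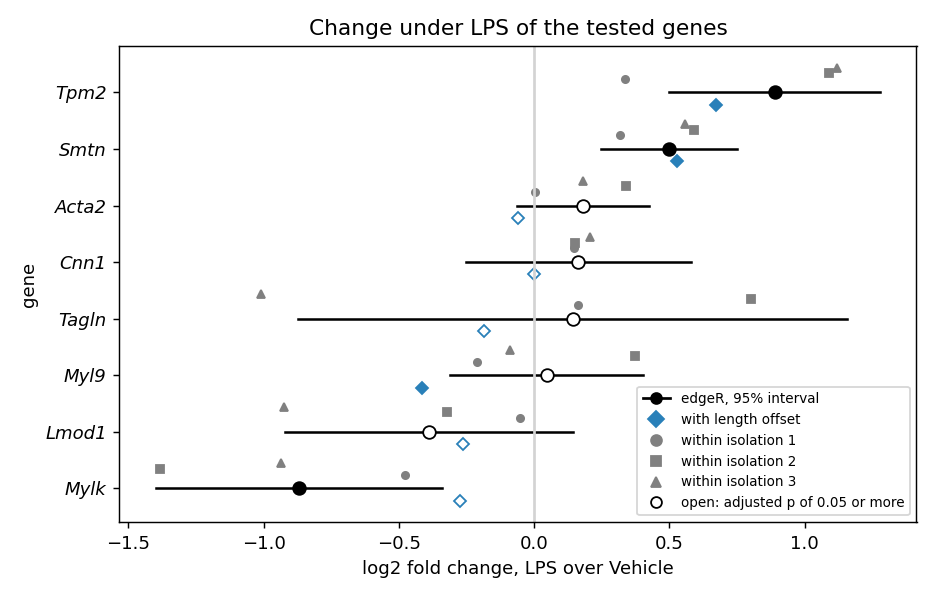
Log2 fold change of the 8 tested genes, LPS over Vehicle. Black circles are edgeR estimates with 95% intervals, blue diamonds the estimates with the length offset and grey symbols the differences within isolations 1, 2 and 3; filled symbols are called. Tpm2 and Smtn lie right of 0 in all, at 0.89 and 0.50, and the estimate for Mylk is -0.87 without the offset and -0.28 with it.

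Fold changes under LPS were related to transcript length over all tested genes. In 10 bins of genes by longest transcript, the median log2 fold change was 0.73 in the bin of the shortest and -0.68 in that of the longest transcripts. Mylk lay in the bin of the longest, where 72.2% of genes were called lower. Tpm2 and Acta2 lay in the third bin, from 1707 to 2216 bases, with a median of 0.33, and Tagln and Myl9 in the second, with a median of 0.54. Smtn, with 3386 bases, lay in a bin with a median of -0.05, 16.1% of whose genes were called higher. The part of length in the result for a single gene was not tested beyond the fits with the offset.

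**Figure D3:**
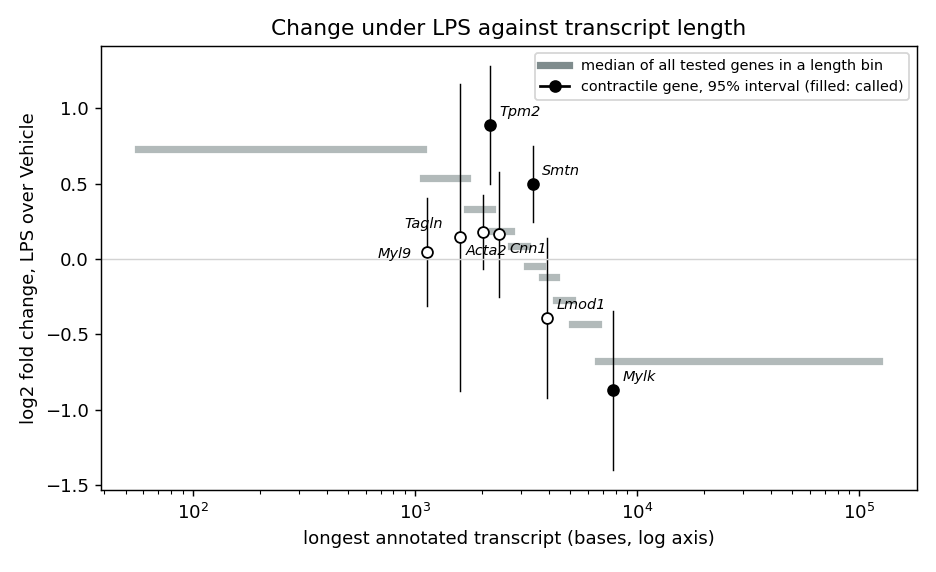
Log2 fold change (LPS over Vehicle) of the 8 tested genes, with 95% intervals, against the length of the longest annotated transcript (log axis); grey bars are medians of all tested genes in 10 length bins, each drawn over its range of lengths. The medians fall from 0.73 to -0.68 with length, Tpm2 and Smtn lie above the bar of their bin, and the points of the other 6 genes lie below theirs.

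No difference between isolations was detected in the tested genes. In a model with isolation and group, 0 of the 8 were called between isolations by edgeR, and 0 at an unadjusted p under 0.05, against 0.00689% of all tested genes called and 9.23% at an unadjusted p under 0.05. Without isolation 1, Acta2 was called between isolations 2 and 3.

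Each of these genes has relatives that are used outside smooth muscle, and for 7 of the 10 the relatives held most of the message. Acta2 made up 4.54 ± 0.499% of the summed TPM of 6 actin genes in LPS and 5.40 ± 0.615% in Vehicle; nearly all the rest came from the cytoplasmic actin genes Actb and Actg1. Tagln made up 0.170 ± 0.0922% and 0.208 ± 0.0412% of the transgelin family, where Tagln2 averaged 952 ± 49.9 TPM in LPS and 893 ± 31.4 TPM in Vehicle. The share of Tagln is uncertain, as its level is, because antisense genes overlap its exons. Cnn1 made up 0.849 ± 0.0802% and 0.867 ± 0.102% of the calponin genes, and Myh11 0.0361 ± 0.0399% and 0.0181 ± 0.0147% of a myosin heavy chain family led by the non-muscle gene Myh9. Myocd made up 0.0613 ± 0.106% and 0.139 ± 0.0485% of the coactivator family, where Mkl1 (also named Mrtfa) averaged 24.7 ± 4.71 and 36.4 ± 0.224 TPM.

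The shares of Myl9 and Tpm2 differed most clearly between the groups by range. Myl9 was 13.7, 14.9 and 10.1% of the regulatory light chain TPM in LPS 1, 2 and 3, against 21.6, 22.0 and 19.0% in Vehicle 1, 2 and 3, without overlap. Myl12a, a non-muscle light chain gene, averaged 389 ± 35.4 TPM in LPS and 272 ± 12.5 TPM in Vehicle. It rose in CPM by a log2 fold change of 0.90 (edgeR adjusted p = 0.00146), or 0.63 with the length offset (edgeR adjusted p = 0.00194). The other relative, Myl12b, averaged 3.69 ± 0.568 TPM in LPS and 5.04 ± 0.478 TPM in Vehicle. Sequence shared between Myl12a and Myl12b was not searched for. Tpm2 was 11.2, 15.9 and 17.2% of the tropomyosin TPM in LPS 1, 2 and 3, against 10.5, 9.75 and 9.66% in Vehicle 1, 2 and 3, also without overlap. The difference of the mean shares, LPS minus Vehicle, was -7.94 percentage points for Myl9 and 4.80 for Tpm2. Its size depended on the length scaling. Shares of raw counts gave -3.49 for Myl9 and 3.85 for Tpm2, and scaling by longest transcript gave -5.47 and 4.20. For both genes, the 2-sided exact permutation test on the TPM shares gave p = 0.1, the smallest that 3 against 3 allows. The adjusted p was 0.5 over 10 families, so the shares cannot pass a threshold of 0.05 in this design. The same test gave p of 0.2 to 1 for the other 8 families. Mylk made up 54.9 ± 16.4% of the light chain kinase TPM in LPS and 78.4 ± 11.0% in Vehicle. This share rests on low levels, as the whole family held 2.88 to 7.32 TPM per library. Its relative Mylk2 averaged 1.61 ± 0.639 TPM in LPS and 1.33 ± 0.725 TPM in Vehicle. The difference of the mean Mylk shares was -23.5 percentage points in TPM and -12.0 in raw counts. Smtn made up 98.6 ± 0.332% and 98.5 ± 0.328% of the smoothelin family in LPS and Vehicle, and Lmod1 99.1 ± 1.56% and 99.6 ± 0.716% of the leiomodins.

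**Figure D4:**
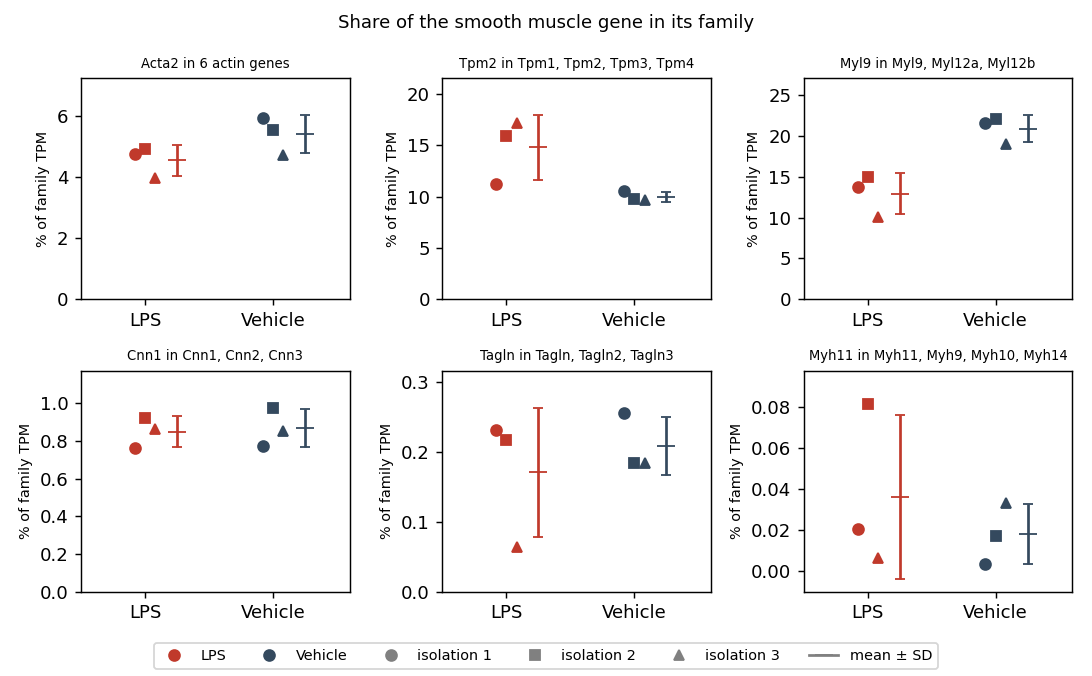
Share of the smooth muscle gene in the summed TPM of its family, in percent, for 6 families, with LPS left of Vehicle, 1 symbol per isolation and bars for mean ± SD (n = 3 each). The groups do not overlap for Tpm2 and Myl9, and Tagln is at most 0.256% in any library.

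Of 11 tested of 12 non-muscle relatives, 5 rose (Actb, Actg1, Tagln2, Myl12a and Tpm3) and 2 fell (Myh9 and Myh10), or 45.5% and 18.2%, against 24.9% and 24.4% of all tested genes. The call of Actg1 ended without LPS 2, Vehicle 1 or Vehicle 2 (adjusted p up to 0.0822). The length offset left 2 higher (Myl12a and Tpm3) and 1 lower (Myh10), or 18.2% and 9.09%, against 21.8% and 13.8% of all. The median log2 fold change was 0.23 without it. Myh9 and Myh10, the long non-muscle myosin heavy chain genes, fell by 0.55 and 0.93 on the log2 scale (adjusted p = 0.00712 and 0.00212). With the length offset Myh10 was still called lower (adjusted p = 0.0295), whereas Myh9 was at 0.03 (adjusted p = 0.844). Actb rose to 4896 ± 586 CPM in LPS, against 3456 ± 227 CPM in Vehicle (adjusted p = 0.00692; 0.0621 with the length offset). Tpm4 was the most abundant uncalled relative, with 1106 ± 37.8 CPM in LPS and 983 ± 60.8 CPM in Vehicle (adjusted p = 0.148).

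Among regulators of the programme, 1 of 12 tested genes rose and 3 fell, and the median log2 fold change was -0.13. The 3 that fell are 25% of the list, near the 24.4% of all tested genes, and the 1 that rose is 8.33%, against 24.9%. Under the length offset 2 rose and 3 fell, or 16.7% and 25%, against 21.8% and 13.8% of all. The gene that rose, the SRF partner gene Elk4, had an adjusted p of 0.0293, and leaving out any library but LPS 1 ended its call (adjusted p up to 0.0893). Srf itself had 88.6 ± 7.89 CPM in LPS and 84.4 ± 10.4 CPM in Vehicle (adjusted p = 0.638). Mkl2 (Mrtfb) fell to 23.1 ± 5.997 CPM in LPS, against 45.2 ± 5.91 CPM in Vehicle, a log2 fold change of -0.96 (adjusted p = 0.00231), or -0.33 with the length offset (adjusted p = 0.0373). Tead1, whose product binds MCAT elements, fell by 0.91 on the log2 scale (adjusted p = 0.00148), and was not called with the offset (adjusted p = 0.0638). Elk1, an SRF partner that competes with myocardin, fell by 0.57 (adjusted p = 0.00745; 0.00868 with the offset). Prrx1, the most abundant of the list, had 321 ± 36.0 and 383 ± 19.3 CPM in LPS and Vehicle (adjusted p = 0.0581). Its call depended on the fit: lower without LPS 1 or with the replicate block (adjusted p = 0.0380), and higher with the length offset (adjusted p = 0.0137).

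Other contractile and cytoskeletal genes moved both ways. Of 32 tested of 35, 9 rose and 14 fell, or 28.1% and 43.8%, against 24.9% and 24.4% of all tested genes (median log2 fold change -0.28). Under the length offset 6 rose and 7 fell, or 18.8% and 21.9%, against 21.8% and 13.8% of all (median -0.11). Among the steepest falls were those of Vcl, which encodes vinculin, and Synm, an intermediate filament gene. Vcl had 82.4 ± 48.8 CPM in LPS and 291 ± 34.1 CPM in Vehicle, a log2 fold change of -1.82 (adjusted p = 0.00240), or -1.49 with the length offset (adjusted p = 0.00294). Synm had 4.47 ± 1.18 CPM in LPS and 10.2 ± 1.93 CPM in Vehicle (log2 fold change -1.19, and -0.58 with the offset). Both were called with and without the offset. The alpha-actinin gene Actn1 was the most abundant uncalled one, at 1303 ± 138 CPM in LPS and 1504 ± 52.7 CPM in Vehicle (adjusted p = 0.124); leaving out LPS 1 made it a lower call (adjusted p = 0.00903). Pdlim3 had 0 counts in all 6 libraries.

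Of 31 tested of 38 genes for the calcium and phosphatase control of contraction, 5 rose (among them Ppp1r14b, Calm2, Orai1 and Dapk3) and 15 fell, with a median log2 fold change at -0.48. These are 16.1% and 48.4%, against 24.9% and 24.4% of all tested genes. The call of Orai1 ended without any library but LPS 1 (adjusted p up to 0.112). Under the length offset 6 rose and 6 fell (median -0.11), each 19.4%, against 21.8% and 13.8% of all. Prkg1, the cGMP-dependent kinase gene of the relaxing pathway, fell to 0.985 ± 0.349 CPM in LPS, against 4.41 ± 1.18 CPM in Vehicle (log2 fold change -2.12, adjusted p = 0.00148), and Pde5a, the cGMP phosphodiesterase gene, to 20.6 ± 4.86 CPM, against 62.9 ± 12.0 CPM (log2 fold change -1.61, adjusted p = 0.00109). With the length offset they remained called, at -1.58 and -1.01 (adjusted p = 0.00364 and 0.00103). Cacna1c, the L-type calcium channel gene, fell by 1.14 on the log2 scale (adjusted p = 0.00275), and was not called with the offset (adjusted p = 0.138). Rhoa, which drives contraction through its kinases, stood at 316 ± 18.2 CPM in LPS and 291 ± 12.4 CPM in Vehicle (adjusted p = 0.268); the offset made it a higher call (adjusted p = 0.00539).

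The 5 genes whose pattern over the 6 libraries was most like that of Acta2, of 10113 tested protein-coding genes averaging 5 CPM or more, included Apobec1, Afg3l1, Pkdcc and Pmaip1. Pearson's r of log2 CPM was 0.974 for Apobec1 and 0.961 for Pmaip1, over 6 libraries that share 3 isolations; this is a description, and the 5 are the highest of many genes ranked on few libraries. None of these 4 was called between LPS and Vehicle (edgeR adjusted p from 0.0902 to 0.331).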

How the data were processed

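RNA was measured in 3 LPS and 3 Vehicle libraries of paired-end bulk sequencing from TRIzol-extracted total RNA, per the labels' protocols. The submitters' processing notes name HISAT2 and the builds GRCm38 and mm10. How reads were counted, and whether by strand, is not given in the sources used here. Deposited were raw counts per gene and, per the file headers, a gene length in bases. Columns named with LPS were taken as LPS 1 to 3 and the others, by elimination, as Vehicle 1 to 3. GENCODE M21 held 99.774% of the gene IDs; gene names and coordinates are those of the table, transcript lengths and exon overlaps those of GENCODE.

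LPS was set against Vehicle in edgeR 4.0.16, R 4.3.3 (TMM, filterByExpr, 2-sided quasi-likelihood F-test, Benjamini-Hochberg adjustment over all 14508 tested genes). CPM used TMM-scaled library sizes and TPM the deposited gene length. Where a length offset is named, a natural spline with 5 degrees of freedom of log2 deviations over log2 longest transcript length was fitted per library and entered the model. The script was checked on simulated counts. The labels give each isolation 1 LPS and 1 Vehicle culture, so libraries of 1 number are a pair; the correlation across genes of the deviations of the 2 libraries of an isolation was 0.0827, -0.0397 and 0.178 for isolations 1, 2 and 3. The replicate block was an alternative. Other settings were DESeq2 1.42.0, limma 3.58.1 (voom), other scalings and filters, and leaving out libraries and isolations.

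The members, lists, tests and alternatives were chosen with earlier results of these data known. Named were all members and, from each list, the 3 called genes of largest fold change, the uncalled gene of highest level, relatives of the members, the pair of most abundant cell type markers, those at 0 counts, and the 5 genes most like Acta2. Srf, Cdh5 and further called genes of short counts were named after their values were seen. A few genes chosen in this way are not reported here.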

Additional observations from a re-analysis of the deposited data

How the results depend on the processing

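Tpm2 and Smtn were called higher under every scaling, filter, tool, length offset, replicate block and single left-out library tried, and under a threshold of 0.01; Mylk was called lower under every scaling, filter and tool with all 6 libraries at 0.05. The exceptions follow. The replicate block changed no call of a member (Mylk was at -0.91 with it, adjusted p = 0.00261) and called 3706 genes higher and 3693 lower, against 3616 and 3534 without it. Without isolation 2, edgeR called 0 members higher and 0 lower, with 2 and 0 at an unadjusted p under 0.05, and 8 higher and 0 lower of all genes (unadjusted p under 0.05: 2587 and 2469). DESeq2 without isolation 2, added after the data were seen, called 1 member higher (Tpm2) and 0 lower, and 1450 and 1191 of all genes. Without isolation 1, 3 members were called higher (Acta2 added) and 2 lower (Lmod1 and Mylk), and 4079 and 4170 of all genes. Leaving out single libraries gave 2 to 3 members higher and 0 to 1 lower, and 2528 to 4362 genes higher and 2486 to 4463 lower over all genes. At a threshold of 0.01, edgeR called 2 members higher and 0 lower (1 lower at an unadjusted p under 0.05), and 2309 genes higher and 2223 lower over all genes. Members called lower numbered 1 with the length offset, but this was Myl9 and not Mylk, and 0 with the offset for deposited length, each with 1 at an unadjusted p under 0.05. Over all genes, 1996 were called lower with the length offset, 2339 with the offset for deposited length and 2264 with the length offset and the replicate block.

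The sign of 4 uncalled members changed, the cause not tested. With the length offset, the offset for deposited length, and the length offset with the replicate block, log2 fold changes were -0.0608, -0.15 and -0.0653 for Acta2, -0.19, -0.14 and -0.30 for Tagln, and -0.41, -0.39 and -0.43 for Myl9. For Cnn1 they were -0.000299 and -0.0148 with the length offset and the offset for deposited length. Tagln was at -0.0287 in limma-voom, at -0.24 without isolation 2 in edgeR and in DESeq2, and between -0.16 and 0.53 without single libraries. Myl9 was at -0.0294 with library sizes alone, at -0.15 without isolation 2 in edgeR and in DESeq2, and between -0.16 and 0.14 without single libraries. Of all tested genes, edgeR called 1 between isolations, 478 with no filter, 4 with the length offset, and 303, 9 and 9 without isolations 1, 2 and 3; without isolation 1 this included 1 member. The share differences of families, in percentage points, ranged without single libraries from -0.0677 to 0.0155 for Tagln, -0.0656 to 0.0354 for Cnn1, -0.00455 to 0.0330 for Myh11 and -0.942 to 0.413 for Lmod1; paired sign flips within isolations, a replicate block for 3 pairs, cannot give p below 0.25. Depth limits Tagln, Myh11 and Myocd. Separate cultures of 3 isolations are the replicates.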
